A study of Bos taurus with 16 samples.

Results

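Keratins are the proteins that build the intermediate filaments of epithelial cells. An acidic (type I) and a basic (type II) keratin pair with each other to form the filament, and KRT8 with KRT18 is the pair found in simple, single-layered epithelia such as that lining the uterus, usually together with KRT7 and KRT19. KRT5 pairs with KRT14 or KRT15 in the basal cells of layered epithelia, other keratins mark the upper layers of skin and mucosa, and a further group is made in hair and nail. Trophoblast, the epithelium of the placenta, also makes KRT7, KRT8 and KRT18, whereas the main intermediate filament protein of monocytes and macrophages is vimentin.

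Keratin probes were taken from the array's own annotation, as those whose gene name, or bracketed symbol in the description, is KRT with a number. This gave 40 probes, and 1 more, described as cytokeratin 19, was added because its accession belongs to KRT19, so that 41 of the 21475 probes on the array represented 39 keratin genes. The arrays were hybridized with RNA of CD14+ cells, which carry a surface marker of monocytes and macrophages, sorted by flow cytometry from the enzymatically dispersed endometrium and from the heart blood of 4 pregnant cows. The endometrium group and the blood group each held 1 sample from each cow, collected at slaughter at pregnancy day 164 for animal 1, 239 for animal 2, 242 for animal 3 and 248 for animal 4, with no treatment, so that day and animal cannot be told apart. The RNA was amplified before labeling, both tissues of an animal were hybridized together on a 2-colour array, and each animal had 2 arrays, labeled as technical replicates. The dyes were swapped between the 2 arrays in 3 of the 4 animals, and in animal 3 the endometrium was in Cy5 on both.

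The levels of CD14 and of a T cell gene were read beside the labeled cell type, and the share of each cell type was not tested. CD14 itself had endometrial log2 levels of 14.04, 6.07, 9.5 and 7.38 for animals 1 to 4, and blood log2 levels of 16.12, 5.76, 8.85 and 6.94. The CD14 probe was well above background in all channels, and animal 1 stood far above the other animals in both tissues. CD3E, a subunit of the T cell receptor complex, had log2 levels of 10.29, 15.18, 14.72 and 13.98 in endometrium and of 8.03, 14.07, 13.01 and 14.24 in blood of animals 1 to 4. The quartiles of the log2 levels over all probes and channels were 4.47 and 11.36. In both tissues of animals 2 to 4, CD14 lay between these quartiles and CD3E above the upper one. In animal 1 it was the reverse. Levels of different probes cannot be set against each other, so the 2 genes do not give the share of each cell type. The same probes can be compared between animals. In blood the summed level of a monocyte and macrophage list was 432787 in animal 1 and 26015, 38619 and 17563 in animals 2 to 4. For a T and natural killer cell list it was 8032 against 103574, 59364 and 143196. Both lists are described below, and which cells these samples held was not tested. The share of spots well above background ran from 65.2% to 82.9% over the 16 channels, saturation was absent, and precision is limited by the small number of animals.

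The probes of the 5 keratins that carry the comparison, and those of KRT4 and KRT17, are shown as stretches of 30 bases from the 60-base oligonucleotides of the array, because they show what part of the message was measured. The capitals mark AATAAA, the polyadenylation signal near the 3′ end of many mRNAs. For KRT7 bases 13 to 42 of the probe are shown and for the others bases 31 to 60.
KRT7: agaatagcttccAATAAAgcagctgctttc
KRT8: tgtaagcgtctttttcagAATAAAtccaat
KRT18: cAATAAAagttgagacattattgcatatca
KRT19: tctccccctgacctgccAATAAAactttat
KRT5: tctgactatctccagattgtgttcAATAAA
KRT4: aacaaccgcaatctggacctggacaagcat
KRT17: accaggagtacaagatcctgctggacgtga

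The signal was found on the given strand in 8 of the 41 keratin probes (19.5%), among them all of the first 5 shown, and in 11.8% of all probes on the array, while its reverse complement TTTATT was in 1 keratin probe and in 3.88% of all probes. The probes of KRT4 and KRT17 hold neither. The longest run of bases that the KRT7 probe shared with any other keratin probe was 9, against 8 for KRT8, 10 for KRT18, 9 for KRT19 and 10 for KRT17, and hybridization across keratins was not tested. In the order of genes of the RefSeq assembly ARS-UCD2.0, KRT18 and KRT8 are direct neighbours among protein-coding genes, and so are KRT15 and KRT19. Positions in the genome build of the array design were not analysed here.

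Of the 41 keratin probes, 27 were well above background in at least 1 endometrial channel, 25 in at least 1 blood channel and 13 in none of the 16. Testing required a probe to stand well above background in 4 or more channels of endometrium or of blood, and 23 keratin probes met this. The 6 simple epithelial keratins were split, since KRT7, KRT8, KRT18 and KRT19 were well above background in all 8 endometrial channels while KRT20, a keratin of the gut lining, and KRT23 were above it in none of either tissue. The 5 basal keratin probes were all tested, and so were 6 of the 10 suprabasal ones. Of the 20 probes for keratins of hair and its root sheath, 8 were tested and 9 were above background in no channel.

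**Figure D1:**
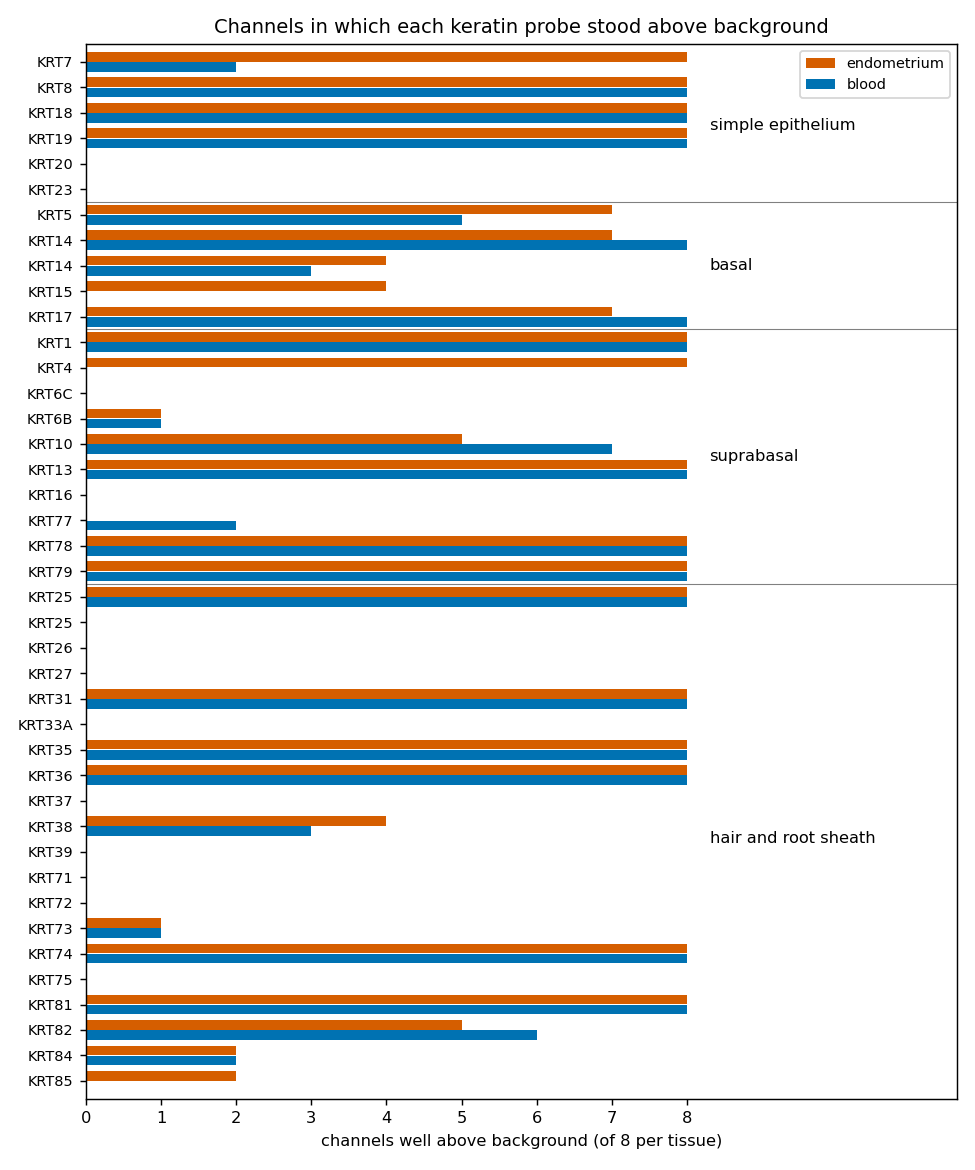
Number of channels, of 8 in each tissue, in which each of the 41 keratin probes was well above background (horizontal bars), by keratin group. KRT7 reached 8 endometrial and 2 blood channels and KRT4 reached 8 and 0, whereas KRT8, KRT18 and KRT19 reached 8 in both tissues.

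KRT7, KRT18 and KRT8 were called higher in endometrial than in blood CD14+ cells and were higher in each of the 4 animals. In the authors' normalized values the mean fold over the 4 animals was 14.98 for KRT18 and 11.1 for KRT8. For KRT7 it was 49.5 with dim blood values raised to a floor described below. No keratin was called higher in blood. The called keratins were 3 of the 23 keratin probes tested. Beside them, 1.19% of all 17282 probes tested were called higher in endometrium and 0.116% higher in blood. Calls needed a Benjamini-Hochberg adjusted p of at most 0.05 from limma and a fold change over 2. In these bulk samples, fewer cells of a type and less RNA per cell cannot be told apart. All levels below are the authors' log2 values, averaged over the spots of a probe and the 2 arrays of an animal, and levels of different probes cannot be set against each other. Over all probes and channels the quartiles of such values were 4.47 and 11.36.

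KRT7 is a type II keratin of glandular and ductal epithelia. Its log2 level in animals 1 to 4 was 8.90, 7.42, 13.90 and 8.63 in endometrium and 3.19, 2.76, 6.91 and 2.49 in blood. The groups did not overlap, animal 3 was the highest in both tissues, and in blood the probe was well above background only on the 2 arrays of animal 3. Within animals 1 to 4 endometrium exceeded blood by log2 ratios of 5.70, 4.66, 6.99 and 6.14, with a measured mean of 5.88 ± 0.54 (SE, n = 4; limma adjusted p = 0.00720). Because the blood of animals 1, 2 and 4 gave only background, the fold depended on the floor chosen. Blood values under the lowest signal well above background in their channel were raised to it, which gave a floored fold of 49.5. This is no limit on the true difference, and with the background correction described below the fold was 4.54. The unnormalized spot intensity of KRT7 in the blood channels ran from 16.8 to 60, over local backgrounds of 13.5 to 48.8, and in the endometrial channels from 55 to 7346.

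KRT8, the type II partner of KRT18, was measured well above background in all 16 channels. Its log2 level was 11.32, 10.39, 14.74 and 10.47 in endometrium and 8.12, 7.20, 10.73 and 7.00 in blood of animals 1 to 4. Endometrium was higher within every animal, but the groups overlapped because the blood of animal 3, at 10.73, lay above the endometrium of animals 2 and 4. The ratios were close to each other at 3.20, 3.19, 4.01 and 3.47, with a mean of 3.47 ± 0.45 (SE, n = 4; limma adjusted p = 0.0172).

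KRT18, the type I partner of KRT8, gave log2 levels of 12.57, 11.57, 15.38 and 11.38 in endometrium and of 9.0, 8.34, 10.91 and 7.03 in blood. The lowest endometrial level, in animal 4, was above the highest blood level, in animal 3. The log2 ratios were 3.56, 3.23, 4.48 and 4.35, with a mean of 3.91 ± 0.48 (SE, n = 4; limma adjusted p = 0.0138). The 2 arrays of an animal differed by at most 0.26 in the log2 ratio of KRT18, 0.17 in that of KRT8 and 0.61 in that of KRT7, whichever dye the endometrium carried.

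The size of these differences and their calls depended on the processing. When the scanner's median intensities were corrected for background with normexp at an offset of 50 and normalized again, the mean log2 ratio was 2.18 for KRT7 (4.54-fold; limma adjusted p = 0.305), 2.65 for KRT8 (6.28-fold; adjusted p = 0.215) and 3.21 for KRT18 (9.23-fold; adjusted p = 0.148), and none was called. Without animal 4 no probe on the array was called. KRT7 kept its call without animal 1, 2 or 3, KRT18 only without animal 2, and KRT8 in no fit of 3 animals, with adjusted p of 0.0610 to 0.0807, although its mean log2 ratio stayed between 3.29 and 3.56.

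**Figure D2:**
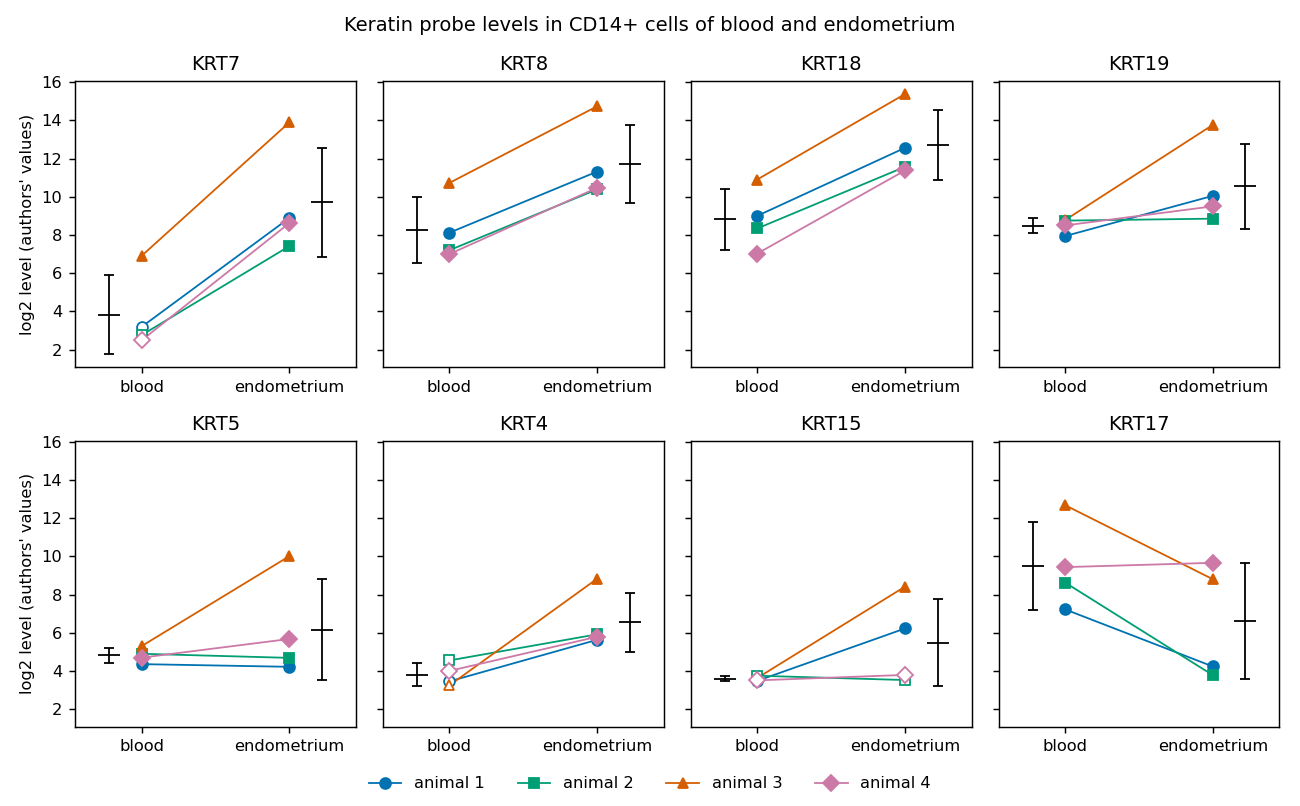
Log2 level of 8 keratin probes in blood and endometrial CD14+ cells of 4 animals, with the 2 tissues of an animal joined by a line, the mean and SD of the 4 animals beside each group, and open symbols where neither array of the animal was well above background. KRT7, KRT8 and KRT18 rise from blood to endometrium in all animals, KRT19, KRT5 and KRT15 most steeply in animal 3, and KRT17 falls in 3 of 4.

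KRT19, a type I keratin that works without a fixed partner and is common in simple and ductal epithelia, was above background in every channel but was not called. Its log2 level was 10.05, 8.86, 13.77 and 9.5 in endometrium and 7.94, 8.76, 8.78 and 8.50 in blood. The groups did not overlap, yet the endometrium of animal 2 was within 0.10 of its own blood sample. The log2 ratios of 2.11, 0.10, 4.99 and 1.00 averaged 2.05 ± 0.82 (SE, n = 4; limma adjusted p = 0.300), and the mean was 1.07 without animal 3. Unlike KRT7, KRT8 and KRT18, whose blood levels differed between animals by 3.73 or more, KRT19 was nearly level in blood, with an SD of 0.39.

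KRT5, the type II keratin of basal cells, was well above background in 7 endometrial and 5 blood channels. Its log2 level was 4.22, 4.69, 10.01 and 5.68 in endometrium and 4.36, 4.90, 5.30 and 4.70 in blood. Animal 3 alone had an endometrial level far above blood, with a log2 ratio of 4.71 against -0.14, -0.22 and 0.98 in animals 1, 2 and 4. The mean of 1.33 ± 0.87 (SE, n = 4) was not past the test (limma adjusted p = 0.496) and was 0.21 without animal 3.

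KRT15, a type I keratin of basal cells, was well above background in 4 endometrial channels, those of animals 1 and 3, and in no blood channel. Its endometrial log2 levels were 6.23, 3.53, 8.42 and 3.80, and its blood levels lay between 3.48 and 3.75. The unnormalized intensities put animal 1 above animal 3. In the samples labeled technical replicate 2, with endometrium in Cy5, they were 154.25 in animal 1 and 131 in animal 3. Local backgrounds were 45.75 and 47.75. The part of the normalization in the level of animal 3 was not tested. The endometrium of animals 2 and 4 could not be told from the dim blood values. The floored fold, taken as for KRT7, was 3.58 in the mean. The measured log2 ratio was 1.90 ± 0.87 (SE, n = 4; limma adjusted p = 0.347), and 0.93 without animal 3. Both means over 4 animals include animals 2 and 4, whose endometrial channels were not above background. The 2 KRT14 probes, for the type I partner of KRT5, had log2 ratios of -0.17 and 0.42, with adjusted p of 0.923 and 0.774.

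KRT17, a type I keratin of basal cells and of epithelia under stress, ran the other way. Its log2 level was 4.24, 3.78, 8.81 and 9.67 in endometrium and 7.23, 8.63, 12.68 and 9.44 in blood of animals 1 to 4. Blood was higher by far in animals 1 to 3, while in animal 4 the tissues lay close together. The log2 ratios of -2.99, -4.85, -3.88 and 0.23 averaged -2.87 ± 0.84 (SE, n = 4), which was not past the test over all probes (limma adjusted p = 0.203). Without animal 4 the mean was -3.91 (adjusted p = 0.0745), and without animal 2 it was -2.21 (adjusted p = 0.399).

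Of the keratins of the upper layers of epithelia, KRT4, the type II keratin of mucosal lining, stood apart. It was well above background in all 8 endometrial and in no blood channel, with endometrial log2 levels of 5.64, 5.92, 8.83 and 5.79 and blood values of 3.46, 4.55, 3.25 and 4.01. Animals 1, 2 and 4 were close together in endometrium, and all 4 were above every blood value. The floored fold, taken as for KRT7, was 6.35 (measured log2 ratio 2.73 ± 0.76, SE, n = 4; limma adjusted p = 0.192). Without animal 3 the measured log2 ratio was 1.78, and under normexp the log2 ratio of this dim probe was 0.57. Of 2 other probes that the reference table pairs with KRT4, but the array's annotation does not, 1 was above background in no channel and the log2 ratio of the other was -0.72 (adjusted p = 0.559), so the probes of this gene disagreed.

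The remaining 15 keratin probes tested had mean log2 ratios between -0.76 and 0.50 and adjusted p of 0.464 to 0.958, and none was called. KRT10 and KRT1, the keratins of the upper epidermis, had log2 ratios of 0.20 and -0.20. The hair keratin KRT35 was the highest of the 15 in mean, through animal 3. Its log2 ratio was 3.85 in that animal and -1.40, -0.88 and 0.43 in animals 1, 2 and 4. KRT85, another hair keratin, was too dim to be tested, being well above background in 2 endometrial channels only, and its endometrial log2 level was 5.88 in animal 3 against 2.45 to 2.56 in the other 3 animals. The 18 keratin probes not tested had log2 levels of 2.36 to 6.01.

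**Figure D3:**
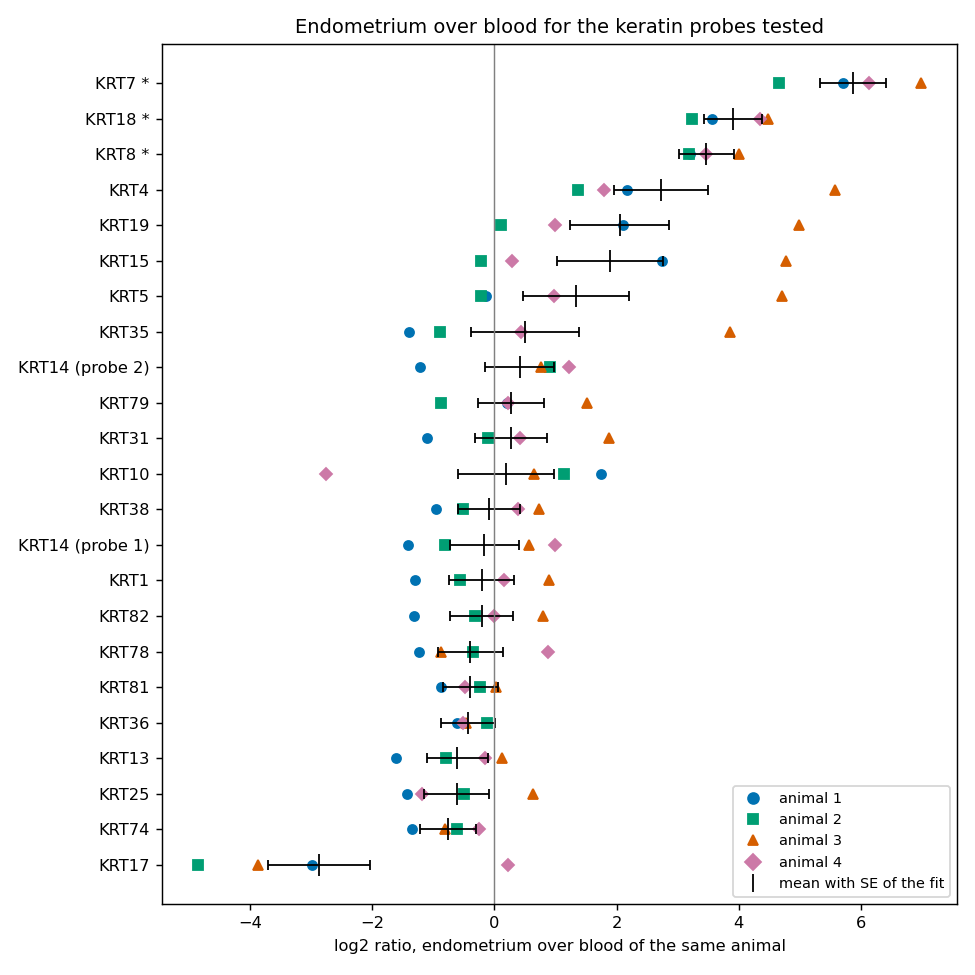
Log2 ratio of endometrium over blood in each of the 4 animals for the 23 keratin probes tested, with the mean and SE of the limma fit in black and an asterisk at the 3 probes called. KRT7, KRT18 and KRT8 have all 4 animals far to the right of 0, whereas KRT4, KRT19, KRT15, KRT5 and KRT35 are spread wide with animal 3 farthest right.

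The log2 ratio was above 0 in all 4 animals for 5 of the 23 keratin probes tested (KRT7, KRT8, KRT18, KRT19 and KRT4), beside 9.64% of all probes tested, and below 0 in all 4 for 2 (KRT36 and KRT74), beside 14.8%. All endometrial levels were above all blood levels for 4 of the 23, beside 2.64%, and below them for KRT74 alone, beside 3.27%. By unadjusted p (0.05 or less, with a fold change over 2), those same 5 keratins were higher in endometrium and KRT17 was higher in blood, beside 7.78% and 7.82% of all probes tested.

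The animals differed in a way shared by many keratins, and animal 3 also differed over all probes tested. The SD of the log2 ratios of all probes tested was 2.34 in animal 3 and 1.63, 1.60 and 1.38 in animals 1, 2 and 4. The endometrial channels of animal 3 had the lowest shares of spots well above background, at 65.2% and 66.4%. The part of these array-wide traits in the keratin values was not tested. The largest of the 4 log2 ratios belonged to animal 3 for 16 of the 23 keratin probes tested, beside 30.3% of all probes tested, and the highest endometrial level for 17, beside 28.6%. In blood the highest level belonged to animal 3 for 10 of the 23, beside 22.1%, and KRT7, KRT8, KRT18 and KRT17 were among them. The dyes were not swapped in animal 3, and the part of the dye in its values was not tested. In the 3 swapped animals the log2 ratios of the 2 orientations differed by at most 0.17 for KRT8, 0.26 for KRT18, 0.60 for KRT7, 0.77 for KRT15 and 1.16 for KRT4. The endometrial and blood RNA of an animal shared its arrays, and the part of this in the blood levels was not tested.

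Genes that hold keratin filaments at cell junctions were examined as a list, of which 16 of 20 found on the array were tested. In this list 2 were called higher in endometrium and 0 higher in blood, beside 1.19% and 0.116% of all probes tested, and 5 and 1 passed by unadjusted p (0.05 or less, with a fold change over 2), beside 7.78% and 7.82%, with a median log2 ratio of 0.26 beside -0.13 over all probes tested. Desmoplakin (DSP), which ties keratin filaments to the desmosome, had a mean log2 ratio of 4.09 ± 0.48 (SE, n = 4; limma adjusted p = 0.0118), with values of 3.21, 4.54, 4.35 and 4.25. Periplakin (PPL), a related linker, had 3.80 ± 0.62 (adjusted p = 0.0392), with 2.59, 3.75, 5.71 and 3.17. The desmosomal cadherin DSG2 was well above background in 6 endometrial and 0 blood channels. Its floored fold, taken as for KRT7, was 22.02 in the mean, and its measured difference was not past the test (limma adjusted p = 0.119). COL17A1, a collagen of the hemidesmosome, was lower in endometrium in all 4 animals, with a log2 ratio of -1.60 ± 0.53 (adjusted p = 0.241). The desmosomal cadherins of layered epithelia DSG1, DSG3, DSC1 and DSC3 were above background in no channel. Under normexp neither DSP (2.27, adjusted p = 0.273) nor PPL (2.01, adjusted p = 0.280) was called. Without animal 1 or animal 4, neither was called.

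Of the other intermediate filament genes 9 were tested and 0 called in either direction by limma, with 2 higher in endometrium by unadjusted p (0.05 or less, with a fold change over 2), beside 7.78% of all probes tested. Vimentin (VIM), the filament protein of leukocytes and mesenchyme, had log2 levels of 14.85, 12.60, 13.11 and 13.78 in endometrium and 16.68, 14.11, 12.94 and 13.49 in blood, a mean log2 ratio of -0.72 ± 0.56 (SE, n = 4; adjusted p = 0.575). The groups overlapped, and vimentin was bright in all samples. The nuclear lamin LMNA had a log2 ratio of 2.80 ± 0.57 (adjusted p = 0.0920). For synemin (SYNM) it was 3.01 ± 1.24 (adjusted p = 0.310).

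Markers of other cell types were examined as lists beside the keratins, and their part in the keratin results was not tested. Of the epithelial list, 16 of 17 genes found were tested, all 16 had a mean log2 ratio above 0, and 4 were called higher in endometrium, beside 1.19% of all probes tested, namely the cell adhesion gene CDH1 at 5.11 ± 0.46, the vesicle protein MAL2 at 4.68 ± 0.48, the tight junction gene CLDN3 at 4.43 ± 0.47 and EPCAM at 4.41 ± 0.71 (SE, n = 4; limma adjusted p of 0.00720, 0.00840, 0.00944 and 0.0387). The paper had already reported CDH1 and CLDN3 as higher in endometrium on the same arrays, so their calls are not a separate result. The median log2 ratio of the list was 2.41, and in single animals it was 2.30, 1.18, 4.62 and 0.96, highest in animal 3. The summed level of the 17 genes, on the linear scale of the authors' values, was 29465, 19602, 174081 and 16395 in endometrium and 3665, 6124, 8343 and 4691 in blood of animals 1 to 4. Only OVOL1 was above background in no channel of either tissue. No epithelial gene of the list was called under normexp or without animal 4.

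Of the trophoblast list 12 of 14 genes found were tested, 10 had a mean log2 ratio above 0, and 6, all of them products of the placenta, were called higher in endometrium, beside 1.19% of all probes tested. The paper had already reported these 6 as higher in endometrium on the same arrays. The list was chosen with earlier results known, so their share is not a separate result. The prolactin-related genes PRP6, PRP1 and PRP8 had log2 ratios of 5.74, 5.25 and 4.94, and the pregnancy-associated glycoproteins PAG4, PAG10 and PAG7 had 5.19, 4.88 and 4.63, with adjusted p between 0.00720 and 0.0108. Under normexp PRP8 (adjusted p = 0.148) and PAG10 (adjusted p = 0.104) were not called, and without animal 4 none was. The other tested genes were not called, and their log2 ratios ran from -1.28 for GATA3, a transcription factor also made by T cells, to 2.30 for ELF5. The median log2 ratio of the list in animals 1 to 4 was 3.52, 2.97, 4.13 and 3.57. The summed trophoblast level was 43259 to 150614 in endometrium, highest in animal 3, and 2950 to 5712 in blood. CDX2 was above background in no channel and HSD3B1 in no blood channel.

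The stromal list had its highest sum elsewhere, at 360672 in the endometrium of animal 1 against 1157, 32467 and 8567 in animals 2 to 4, with 1629 to 12565 in blood, and every gene of it was above background in some channel of both tissues. Its called genes were DCN and COL3A1, both of the extracellular matrix. DCN had a log2 ratio of 5.26, and COL3A1, well above background in 2 blood channels, had a floored fold of 20.8, taken as for KRT7. Neither was called under normexp (limma adjusted p = 0.330 and 0.374). The monocyte and macrophage list summed to 37394 to 381584 in endometrium and 17563 to 432787 in blood, highest in animal 1 in both. The T and natural killer cell list summed to 119419 to 434270 in endometrium and 8032 to 143196 in blood, lowest in animal 1 in both. The sums of the B cell list were 10277 to 56835 in endometrium and 21852 to 137907 in blood, and those of the endothelial and mesothelial list 469 to 12890 and 643 to 995. Of these last 4 lists none had a called gene, and CDH5 alone was above background in no blood channel.

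**Figure D4:**
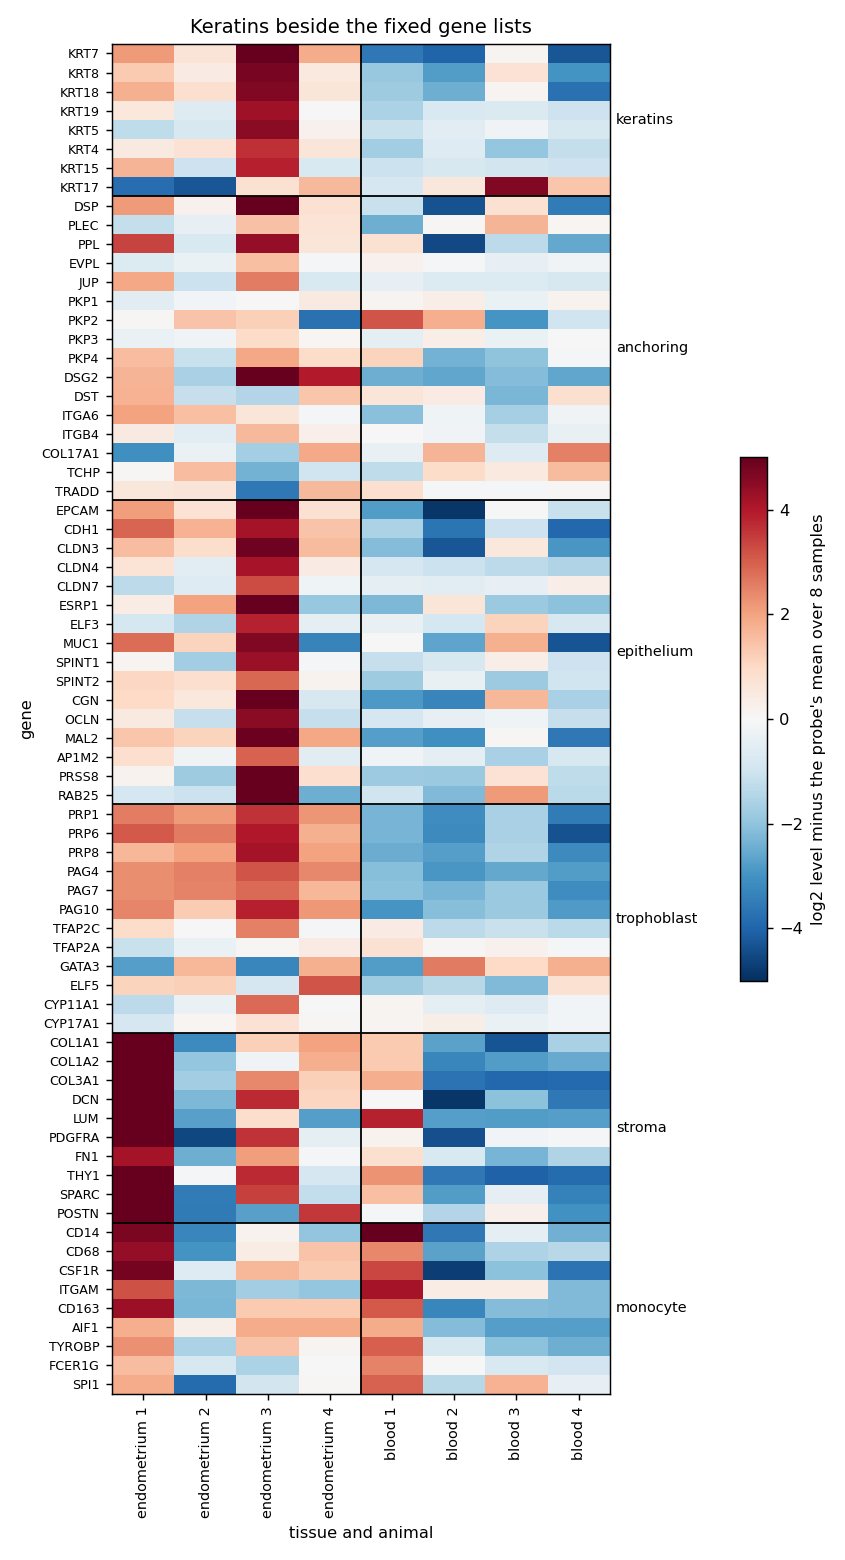
Log2 level minus the probe's mean over the 8 samples (colour scale, red above and blue below the mean, with differences past 5 drawn as 5) for 8 keratins and the tested genes of 5 lists, in the endometrium and blood of animals 1 to 4. KRT7, KRT8 and KRT18 are red in all 4 endometrial samples and darkest in animal 3, as are CDH1, CLDN3 and the PRP and PAG genes, while most stromal and monocyte genes are darkest in animal 1.

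The genes whose levels over the 8 samples were most like each keratin were found by the root mean square difference of the centred log2 levels, other keratins left out. Nearest to KRT7 were AZGP1, OXTR, the oxytocin receptor, and GABRP, at differences of 0.56, 0.70 and 0.75. Nearest to KRT8 were WWC1, CKMT1A and GIPC2, at 0.46, 0.50 and 0.52, while its partner KRT18 was closer still, at 0.43. The genes nearest to KRT18 were the mucin MUC20, GIPC2 and SERPINA5, at 0.40, 0.42 and 0.43. KRT19 was nearest to CLDN4, a tight junction gene, ITGB8 and ECI2, at 0.43, 0.44 and 0.45, and lay 1.25 from KRT8. KRT5 was nearest to SLC5A5, KLHL40 and AMBP, at 0.19, 0.24 and 0.31, and lay 0.71 from KRT19 and 1.56 from KRT8. The genes near KRT7, KRT8 and KRT18 had mean log2 ratios of 3.18 to 5.10, and those near KRT5 had 0.81 to 1.33. These ratios follow from the choice of genes by the same 8 samples and are not a separate result.

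**Figure D5:**
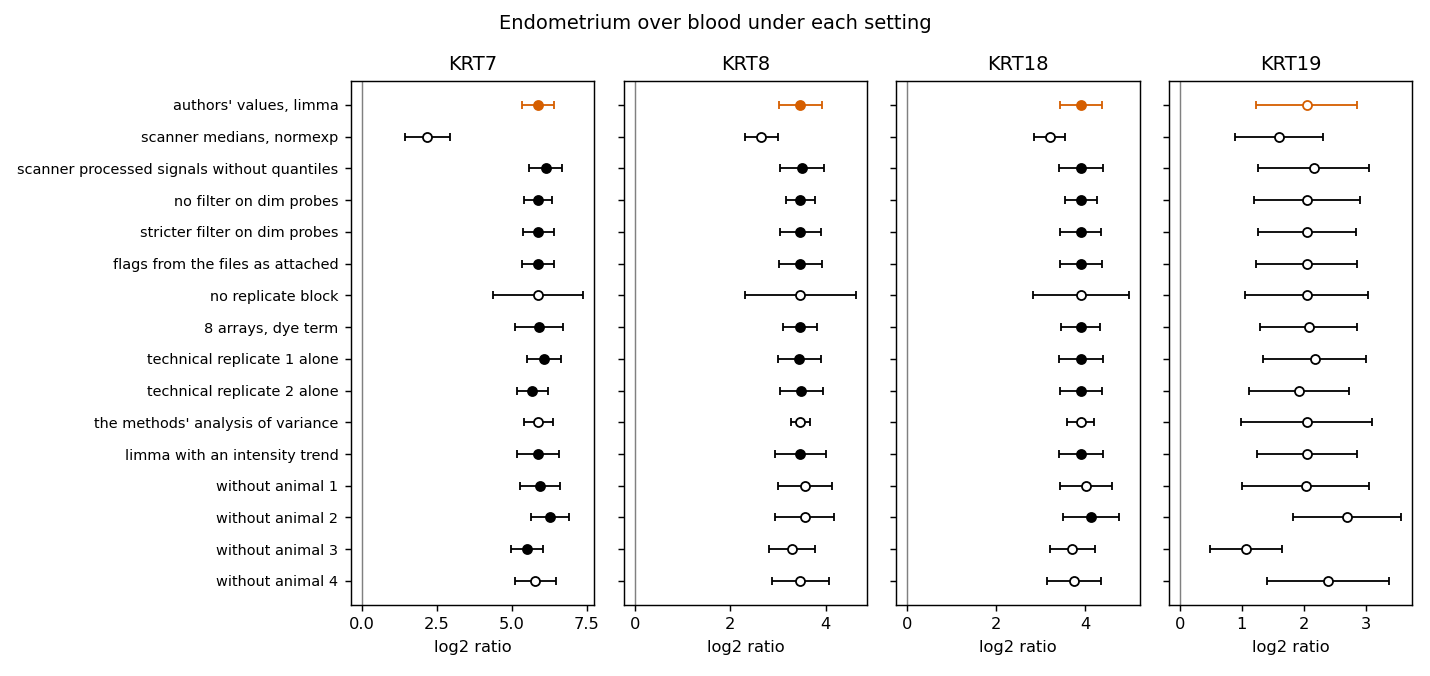
Mean log2 ratio of endometrium over blood with its SE (horizontal axis) for KRT7, KRT8, KRT18 and KRT19 in the fit reported (orange) and under 15 other settings (black), with filled symbols where the probe was called. All values lie above 0, normexp gives the lowest ratio of KRT7 at 2.18, and KRT19 is called under none.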

How the data were processed

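RNA of blood and endometrial CD14+ cells of 4 cows was measured on 8 two-colour arrays of 60-base probes. The authors deposited scanner files with spot intensity (Feature Extraction 10.5.1.1 in the headers, 9.5 in the submitters' processing notes) and a table of log2 values, made by lowess normalization of each array and quantile normalization of all channels. The columns of that table matched (within 0.001 at every probe) the labeled dye in the scanner file of an animal's other array, and flags and intensities were read accordingly.

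Spots of a probe were averaged without controls and outlier spots, then the 2 arrays of an animal. The log2 ratio within an animal was tested against 0 over 4 animals with limma 3.58.1 (lmFit, eBayes; R 4.3.3), adjusted by Benjamini-Hochberg over 17282 probes. Calls needed an adjusted p of 0.05 or less with a fold change over 2. The exact sign-flip test of 4 animals cannot give a p under 0.125. The labels pair the tissues by animal, and within an animal, deviations from both tissue means correlated at r of 0.625, 0.367, 0.235 and 0.447. Both tissues of an animal shared its arrays, so these values do not test the pairing. The ratios of all arrays correlated positively across probes, so no animal ran against the others. A reversal of all labels would leave these correlations unchanged, and the direction was taken from the labels.

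Names were updated from a RefSeq table of ARS-UCD2.0, which held 34 of the 41 keratin probes. The array's KRT6A, KRT24, KRT6L and 1 of its KRT38 probes are KRT6B, KRT25, KRT79 and KRT37 in that table. The brightest of several probes stood for a listed gene. Named were all keratin probes, the 3 genes nearest to each of the 5 described in full, and of each list the called genes and up to 3 with the largest ratio in either direction. Members and lists were chosen with earlier results of these data known. Alternatives changed the values, normalization, filter, flags, pairing, dye term, technical replicates, test, prior variance and animals. Fits were tested on simulated data.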

Additional observations from a re-analysis of the deposited data

Results flagged for a closer look

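Gaps between the 4 animals were checked in 69 sets of 4 values, namely the endometrial levels, blood levels and log2 ratios of the 23 keratin probes tested, and chance alone marks about 1 in 20 such sets. In 2 sets, both of animal 3, 1 value lay farther from the others than Dixon's 95% limit. The endometrial log2 level of KRT4 was 8.83 in animal 3 against 5.64 to 5.92 in the other 3 animals. The unnormalized intensities were closer. In the samples labeled technical replicate 2, all with endometrium in Cy5, they were 119.25, 90.5, 171.25 and 73.5 in animals 1 to 4. Local backgrounds were 44.5, 40.5, 41.75 and 37.25. The part of the normalization in this gap was not tested. The blood log2 level of KRT7 was 6.91 in animal 3 against 2.49 to 3.19 in the others, the only animal in whose blood the probe was well above background.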

How the results depend on the processing

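The log2 ratios of KRT7, KRT8, KRT18, KRT19, KRT4, KRT5, KRT15 and KRT17 kept their direction under every alternative that gave a value, with KRT7 between 2.18 and 6.28, KRT8 between 2.65 and 3.56 and KRT18 between 3.21 and 4.13. KRT19, KRT4, KRT5, KRT15 and KRT17 were called under none. Of the keratin probes 3 were called, and the number was 0 with normexp values, 0 with no replicate block (adjusted p = 0.360 for KRT7 in limma) and 0 in the methods' analysis of variance without pooling of the spread, and 0 to 2 without 1 animal. It was 3 under each other alternative, the scanner's processed signals and either technical replicate alone included. Of all probes 225 were called, against 9 with normexp values, 38 with no replicate block, 123 with no filter on dim probes, 0 in that analysis of variance (1237 by unadjusted p of 0.05 or less with a fold change over 2) and 0 to 184 without 1 animal (2709 at the unadjusted threshold without animal 4). Of the 225, 205 were higher in endometrium. The median log2 ratio of all probes moved from -0.13 to -0.02 with normexp values. The cause was not tested. Dim signals limit KRT4, KRT15, KRT5 and the blood level of KRT7.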
